A study of Mus musculus with 4 samples.

Results

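The acute phase plasma proteins described here are the serum amyloids Saa1, Saa2, Saa3 and Saa4, the orosomucoids Orm1 and Orm2, haptoglobin (Hp), hemopexin (Hpx) and the pentraxins Crp and Apcs. They were taken from the platform annotation by gene symbol, which gave 10 of 19057 named genes and 15 of 45281 probes on the array. All 10 genes were detected on at least 1 array, through 14 of the 15 probes. The exception, Crp probe ILMN_1215829, was on no array well above background (detection p from 0.26 to 0.705), so Crp rests on probe ILMN_1247653.

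The samples were livers of C57BL6/J mice aged 5.5 weeks, all homozygous for a floxed Med1 allele (Med1fl/fl), with no Cre named in the labels. Mice received Ad-His-Med1, an adenovirus that carries Med1, or Ad-LacZ, an adenovirus that carries the beta-galactosidase gene and served as the control. Livers were taken 3 or 5 days after the intravenous injection, and each of the 4 combinations, called Ad-Med1 and Ad-LacZ at day 3 and day 5, was measured on 1 array. All groups carry a virus, so no group shows the uninjected liver, and the labels do not say whether an array stands for 1 animal or a pool.

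Acute phase proteins are secreted mainly by hepatocytes when interleukin 6, interleukin 1 and TNF reach the liver. Interleukin 6 acts through STAT3, while interleukin 1 and TNF act through NF-kappaB, and C/EBP factors join them at many of these promoters. In the mouse Saa1 and Saa2 are the leading circulating amyloids of high density lipoprotein, and Apcs is the pentraxin that responds, whereas Crp, the classical human marker, responds little. Haptoglobin and hemopexin bind haemoglobin and haem set free from red cells, and the orosomucoids are lipocalins that carry lipids and drugs.

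The Ad-Med1 arrays were brighter, with mean intensities of 925 and 968 against 350.2 and 475 in Ad-LacZ, and 12899 to 15294 probes were detected per array. Med1 probe ILMN_2658227 read 11.16 and 12.22 on the log2 scale in Ad-Med1 at day 3 and day 5 and was detected in neither Ad-LacZ array. Med1 was detected in both controls through other probes. ILMN_3106388 read 9.35 and 9.66 in Ad-Med1 against 7.27 and 7.47 in Ad-LacZ. ILMN_1220563 read 9.97 and 9.45 against 7.98 and 9.25, nearly level at day 5. ILMN_1222371 and ILMN_2695175 were detected on no array. Sex-linked transcripts differed between the arrays: at day 3 all 4 Xist probes were detected in Ad-Med1 and none in Ad-LacZ, while Y-linked Eif2s3y read 9.52 in Ad-LacZ and was at background in Ad-Med1. The Eif2s3y values are of probe ILMN_1241001, and its other probe was detected on no array. At day 5 Eif2s3y read 10.54 in Ad-Med1 and was at background in Ad-LacZ, and Xist was detected on each array, so Ad-Med1 day 5 held both transcripts. Whether that array pools animals of both sexes was not tested. Sex therefore cannot be told apart from virus within a day, or from day within a virus. Ad-Med1 day 3 and Ad-LacZ day 5 had the same pattern, with Xist detected and Eif2s3y at background, but they differ in day as well as in virus. With 1 array a group no day allows a test, and 2 arrays against 2 cannot go below p = 0.333 in an exact permutation test.

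The promoters of Saa1, Saa2, Saa3 and Orm2 are shown because Saa1 and Saa2 had like values on the 4 arrays while Saa3 and Orm2 had patterns of their own. RefSeq sequences on build GRCm38.p6, from 250 bases before to 50 after the start, were at hand for 8 of the 10 genes. The windows are chr7:46742931-46743230 on the minus strand for Saa1, chr7:46751583-46751882 on the plus strand for Saa2, chr7:46715627-46715926 on the minus strand for Saa3 and chr4:63362199-63362498 on the plus strand for Orm2. Each reads 5′ to 3′, and capitals mark matches, on either strand, to the C/EBP letters TTNNGCAA or the NF-kappaB letters GGNNTTTCC.
Saa1: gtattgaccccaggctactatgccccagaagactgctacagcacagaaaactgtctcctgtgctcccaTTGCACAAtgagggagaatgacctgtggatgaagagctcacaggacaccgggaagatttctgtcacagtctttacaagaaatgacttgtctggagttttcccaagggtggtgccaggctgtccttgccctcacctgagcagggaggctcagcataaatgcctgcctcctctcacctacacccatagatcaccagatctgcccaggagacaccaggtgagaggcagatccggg
Saa2: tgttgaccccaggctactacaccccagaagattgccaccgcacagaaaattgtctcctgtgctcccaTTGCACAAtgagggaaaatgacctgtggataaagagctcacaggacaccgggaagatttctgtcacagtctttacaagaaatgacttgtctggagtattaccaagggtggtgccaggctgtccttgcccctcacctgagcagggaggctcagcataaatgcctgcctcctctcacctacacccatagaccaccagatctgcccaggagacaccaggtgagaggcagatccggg
Saa3: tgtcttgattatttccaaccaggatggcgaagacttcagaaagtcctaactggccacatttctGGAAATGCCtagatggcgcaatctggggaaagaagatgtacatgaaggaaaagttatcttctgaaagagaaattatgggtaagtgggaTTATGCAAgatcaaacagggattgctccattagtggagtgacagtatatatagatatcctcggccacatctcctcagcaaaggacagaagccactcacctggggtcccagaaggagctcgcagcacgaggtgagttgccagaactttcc
Orm2: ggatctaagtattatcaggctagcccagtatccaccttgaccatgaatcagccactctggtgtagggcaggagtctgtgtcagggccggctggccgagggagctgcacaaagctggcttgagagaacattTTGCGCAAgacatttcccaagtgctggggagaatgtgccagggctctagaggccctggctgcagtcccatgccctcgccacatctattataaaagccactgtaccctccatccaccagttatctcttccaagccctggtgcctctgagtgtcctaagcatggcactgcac
The Saa1 and Saa2 windows are 95.3% identical (287 of 301 aligned positions), against 50.9% for Saa1 and Saa3. The C/EBP match TTGCACAA begins 182 bases before the Saa1 start and 183 bases before the Saa2 start. Saa3 holds TTATGCAA at 99 bases and the NF-kappaB match GGAAATGCC at 187 bases before its start, and Orm2 holds TTGCGCAA at 120 bases. Saa4, whose window is not printed, held C/EBP matches at 245 and 52 bases. In all, 6 of the 8 windows held a C/EBP match against 10.8% of 32851 RefSeq windows, 1 held an NF-kappaB match against 5.82%, and Apcs alone held the STAT letters TTCNNNGAA, found in 8.3%. No matches of different motifs overlapped, and a match describes the letters only.

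Saa3 was the member with the largest difference between the viruses on each day. Saa3 is a serum amyloid that in the mouse is made by macrophages and fat cells as well as by the inflamed liver. Its probe ILMN_2772632 had a normalized log2 signal of 13.74 in Ad-Med1 day 3, 9.57 in Ad-LacZ day 3, 13.95 in Ad-Med1 day 5 and 10.40 in Ad-LacZ day 5. The 2 Ad-Med1 arrays lay close together and far above both Ad-LacZ arrays, with no overlap. Ad-Med1 was 18.1-fold higher at day 3 and 11.7-fold higher at day 5, which placed Saa3 at rank 65 of 15585 and rank 18 of 16080 probes from the highest difference. In intensities as deposited, Saa3 read 18120 and 314 at day 3 and 21935 and 647 at day 5. Over both days the limma effect was 3.86 ± 0.36 on the log2 scale (SE of the fit with virus and day as terms), with an unadjusted p of 0.000482, rank 6 among all probes, and an adjusted p of 0.345 over 16767 probes.

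No probe of the array passed that limma test at an adjusted p under 0.05 (0 of 16767, 0.0%), so none of the 14 member probes did. At an unadjusted p under 0.05 in the same limma fit, 2 of the 14 were higher in Ad-Med1, Saa3 and Orm2, beside 5.95% of all probes. The fit has 1 residual degree of freedom, the difference between the days' virus effects, so its SE is no spread between replicates. In fits with virus as the only term, the adjusted p of Saa3 was 0.0364 without Ad-LacZ day 5, a fit in which 1046 probes were called higher and 570 lower, and lay between 0.159 and 0.713 when another array was left out.

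Saa1 and Saa2 were low on 1 array, Ad-LacZ day 5. Saa1 probe ILMN_2768154 read 14.50 in Ad-Med1 day 3, 14.69 in Ad-LacZ day 3 and 14.19 in Ad-Med1 day 5, against 10.93 in Ad-LacZ day 5. The second Saa1 probe, ILMN_2826869, read 8.85, 10.22 and 8.57 on those first 3 arrays and 6.58 in Ad-LacZ day 5. Saa2 probe ILMN_2758571 read 8.78, 9.51 and 8.20, and 6.29 in Ad-LacZ day 5, where it was not detected. In these normalized values the highest array on all 3 probes was Ad-LacZ day 3 and the lowest Ad-LacZ day 5, so the 2 controls bracket both Ad-Med1 arrays.

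With quantile normalization the difference between the viruses for Saa1 and Saa2 thus pointed in opposite directions on the 2 days, and its sign at day 3 depended on the scaling. At day 5 Ad-Med1 was 9.57-fold and 3.97-fold higher on the Saa1 probes and at least 3.46-fold higher on the Saa2 probe, which bounds the dim side by the lowest detected signal of that array. At day 3 the differences were -0.19 and -1.37 on the log2 scale for the Saa1 probes and -0.73 for Saa2. The Saa1 value of -1.37 was -0.04 with arrays scaled to a common median and 0.18 in the deposited series values less their medians, but those scalings moved the median of all detected probes by 1.04 and 0.86, and less that shift the values were -1.08 and -0.68. Under the same 2 scalings ILMN_2768154 read -0.13 and 0.12 (-1.17 and -0.74 less the shift), and Saa2 read 0.68 and 0.75 (-0.36 and -0.11). As deposited, on arrays of unlike brightness, the day 3 intensities of Ad-Med1 were 1.77-fold and 1.84-fold those of Ad-LacZ for Saa1 and 2.74-fold for Saa2. Probe ILMN_2768154 stood at rank 94 to 213 of all probes on the first 3 arrays, where ILMN_2826869 stood at rank 4127 to 8021. Over both days the limma effects were 1.53 ± 0.93, 0.31 ± 0.91 and 0.59 ± 0.74 (SE; adjusted p = 0.471, 0.879 and 0.707). In limma fits without Ad-LacZ day 3 these effects were 3.41, 2.13 and 2.20, and without Ad-LacZ day 5 they were -0.34, -1.51 and -1.02, none at an adjusted p under 0.05. The probe sequences were not used here, and RefSeq lists each gene's symbol as a synonym of the other, so signal of Saa1 and Saa2 cannot be assigned to 1 of them with certainty.

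With quantile normalization Saa4, the constitutive amyloid of high density lipoprotein, was higher in Ad-Med1 on both days. Probe ILMN_1247506 read 13.97 in Ad-Med1 day 3, 13.43 in Ad-LacZ day 3, 13.95 in Ad-Med1 day 5 and 12.70 in Ad-LacZ day 5. The 2 Ad-Med1 arrays read nearly alike and above both controls. The differences were 1.46-fold at day 3 and 2.37-fold at day 5, and the limma effect was 0.89 ± 0.37 (SE; adjusted p = 0.378). Set against the day 3 control instead, the day 5 difference was 0.53. With median scaling, less the shift of all detected probes, the differences were -0.05 at day 3 and 0.49 at day 5.

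**Figure D1:**
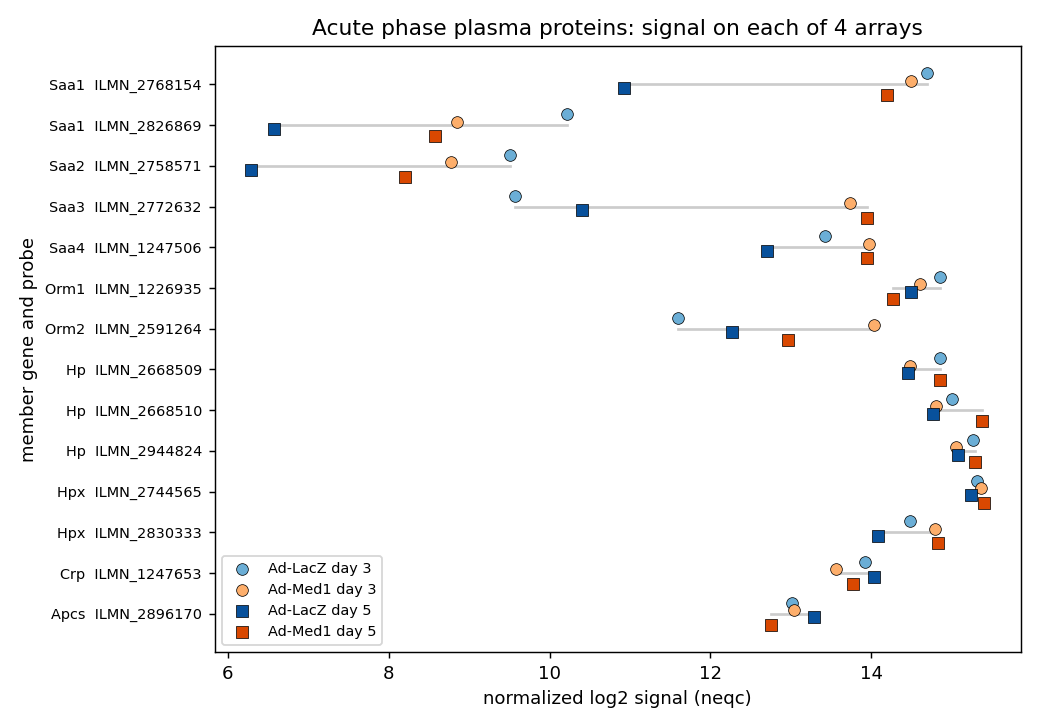
Normalized log2 signal (x axis) of the 14 detected member probes (y axis) on each of 4 arrays, 1 point per array, offset vertically for legibility; grey lines span the range. Saa3 separates the viruses (13.74 and 13.95 against 9.57 and 10.40), and Saa1 and Saa2 are low in Ad-LacZ day 5.

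The orosomucoids differed from each other. Orm2 probe ILMN_2591264 read 14.03 in Ad-Med1 day 3, 11.60 in Ad-LacZ day 3, 12.97 in Ad-Med1 day 5 and 12.27 in Ad-LacZ day 5. Both Ad-Med1 arrays were above both controls, and the day 3 pair was the wider. Ad-Med1 was 5.40-fold higher at day 3, rank 710 of 15585 probes, and 1.62-fold higher at day 5, with a limma effect of 1.56 ± 0.55 (SE; adjusted p = 0.356). The intensities as deposited were 21896 and 1260 at day 3 and 11673 and 2886 at day 5. Orm1 probe ILMN_1226935 read 14.60, 14.86, 14.27 and 14.50 on the same arrays, with differences of -0.26 and -0.22 that stayed below 0 under every normalization tried (-0.34 to -0.08 at day 3 and -0.72 to -0.22 at day 5), though the day 3 value was 0.10 against the other control. With median scaling, less the shift of all detected probes, the Orm1 differences were -1.38 and -1.58. Orm1 lay at rank 67 to 192 of all probes. Orm3, a further orosomucoid outside the 10 members, was detected on no array.

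Haptoglobin, the haemoglobin carrier, was among the 146 brightest probes on every array, and the viruses differed by less than 2-fold on each day. These probes lay near the top of the scale, and whether it limits their differences was not tested: ILMN_2668510 read 42440 in Ad-Med1 day 5, whose brightest probe read 44352, and ILMN_2944824 read 32091 in Ad-LacZ day 3, whose brightest read 39145. Its 3 probes ranged from 14.48 to 15.05 in Ad-Med1 day 3, from 14.85 to 15.27 in Ad-LacZ day 3, from 14.86 to 15.38 in Ad-Med1 day 5 and from 14.46 to 15.08 in Ad-LacZ day 5. The groups overlapped. The differences were -0.37, -0.19 and -0.22 at day 3 and 0.40, 0.61 and 0.21 at day 5 for ILMN_2668509, ILMN_2668510 and ILMN_2944824. The day 5 values turned to -0.25, -0.43 and -0.96 with arrays scaled to a common median, so the direction at day 5 turned with the scaling. Less the shift of all detected probes, the day 3 values with median scaling were -1.44, -1.40 and -1.82.

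Hemopexin, the haem carrier, had its 2 probes at ranks 3 to 21 and 71 to 245 of all probes. ILMN_2744565 read 15.37, 15.31, 15.40 and 15.24 in Ad-Med1 day 3, Ad-LacZ day 3, Ad-Med1 day 5 and Ad-LacZ day 5, and its differences of 0.06 and 0.16 turned to -0.70 and -1.09 with median scaling. ILMN_2830333 read 14.79, 14.48, 14.83 and 14.08, with differences of 0.31 and 0.75. They stayed above 0 under every normalization tried (0.31 to 0.58 and 0.27 to 0.75), but not less the shift of all detected probes. Less that shift they were -0.71 and -0.59 with median scaling, and -0.28 and -0.17 in the series values less their medians. Both Ad-Med1 arrays were above both controls on each probe. The limma effects were 0.11 ± 0.33 and 0.53 ± 0.35 (SE; adjusted p = 0.879 and 0.495).

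With quantile normalization the pentraxins showed no 2-fold difference. Crp read 13.56, 13.92, 13.77 and 14.04 in Ad-Med1 day 3, Ad-LacZ day 3, Ad-Med1 day 5 and Ad-LacZ day 5, both Ad-Med1 arrays lying below both controls. Its differences were -0.37 and -0.27, the first reading 0.25 in the series values less their medians and -0.61 there less the shift of all detected probes, and the limma effect was -0.32 ± 0.33 (SE; adjusted p = 0.653). Apcs, probe ILMN_2896170, read 13.04, 13.01, 12.75 and 13.29, with differences of 0.02 and -0.55 and a limma effect of -0.26 ± 0.36 (SE; adjusted p = 0.735). Its lowest and highest arrays were the 2 of day 5. With median scaling, less the shift of all detected probes, Crp stood at -1.05 and -1.35 and Apcs at -0.38 and -1.39.

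As counts of measured signals, detected or not on the dimmer array, 2 of 14 member probes were at least 2-fold higher in Ad-Med1 at day 3 (Saa3 and Orm2), beside 18.3% of all probes detected on either array, and 1 was at least 2-fold lower (Saa1 ILMN_2826869), beside 14.7%. At day 5, 5 were at least 2-fold higher, all of them serum amyloids, beside 10.1% of all probes, and 0 were lower, beside 9.8%. Saa3 alone was at least 2-fold higher on both days (3.44% of all probes), and 0 members were lower on both (4.86%). With undetected arrays set to their lowest detected signal, the member counts were the same, and the shares of all probes were 11.7% higher and 12.7% lower at day 3 and 6.52% and 7.9% at day 5. The day 3 share is near the background, and the median member difference was -0.19 at day 3 and 0.65 at day 5, against -0.05 and 0.05 over all probes. Both Ad-Med1 arrays lay above both Ad-LacZ arrays for 5 of 14 member probes (27.2% of all probes) and below for 1 (28.0%). On 8 of the 14 probes the viruses differed by less than 2-fold on both days. With the other day's Ad-LacZ array as the control, the numbers higher were 6 at day 3 and 2 at day 5. Of all probes, 1463 of 15696 and 3015 of 15964 were higher there. Saa1 and Saa2 then lay on opposite sides from before.

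**Figure D2:**
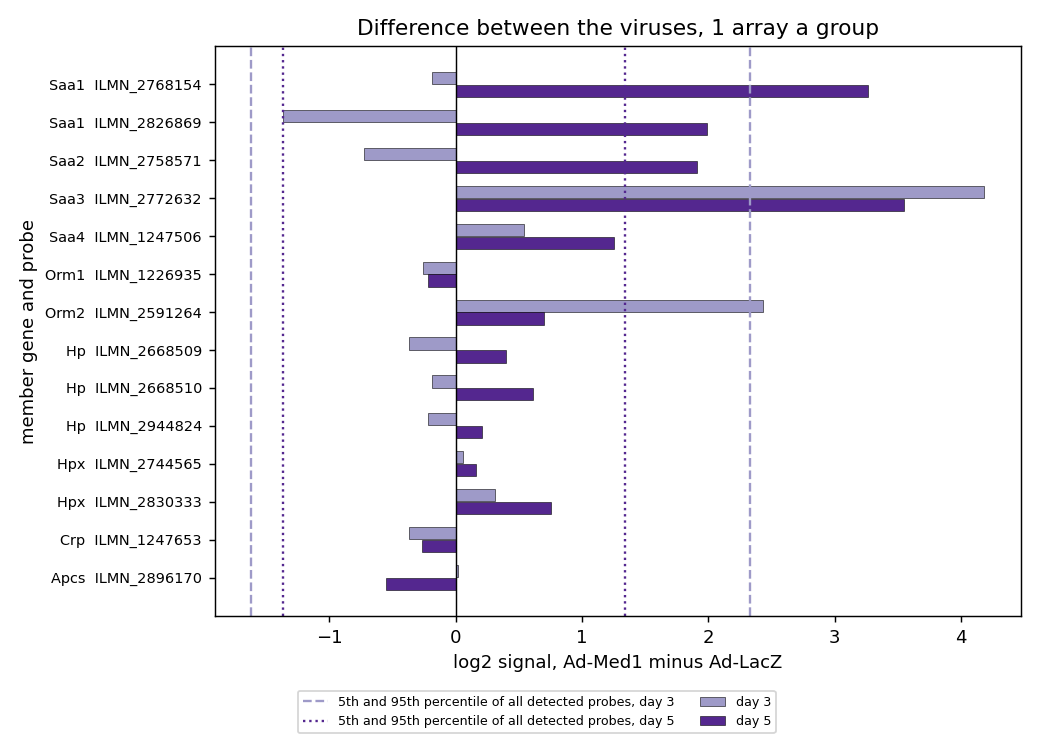
Log2 signal of Ad-Med1 minus Ad-LacZ (x axis) for the 14 detected member probes (y axis) at day 3 and day 5, each bar the difference of 2 arrays; dashed and dotted lines are the 5th and 95th percentiles of all detected probes (-1.62 and 2.33 at day 3, -1.37 and 1.34 at day 5). Saa3 lies beyond the 95th percentile on both days, Orm2 at day 3 only, and Saa1 and Saa2 at day 5 only.

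Within Ad-LacZ, Saa1 and Saa2 were among the most different probes between the days. Saa1 was lower at day 5 by 13.5-fold and 12.5-fold on its 2 probes, ranks 7 and 8 of 14844 from the lowest difference, and Saa2 by at least 8.55-fold, rank 19. These were the 3 of 14 member probes at least 2-fold lower at day 5 in Ad-LacZ, beside 7.79% of all probes, and 0 were at least 2-fold higher, beside 13.9%. Saa3 and Orm2 went the other way in these controls, at 0.84 and 0.68 on the log2 scale, and Saa4 stood at -0.72. Under the other normalizations the Saa1 differences lay between -4.18 and -3.69 for ILMN_2768154 and between -3.64 and -1.98 for ILMN_2826869, and that of Saa2 between -3.22 and -1.43.

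Within Ad-Med1 the members were nearly level between the days. Orm2 was the only member probe past 2-fold, 2.09-fold lower at day 5, which is 1 of 14 beside 2.79% of all probes, and 0 were higher, beside 4.68%. Saa1 differed by -0.31 and -0.28, Saa2 by -0.58, Saa3 by 0.21 and Saa4 by -0.02. Since the 2 Ad-LacZ arrays also differ in Xist and Eif2s3y, day and sex cannot be told apart for Saa1 and Saa2 there.

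**Figure D3:**
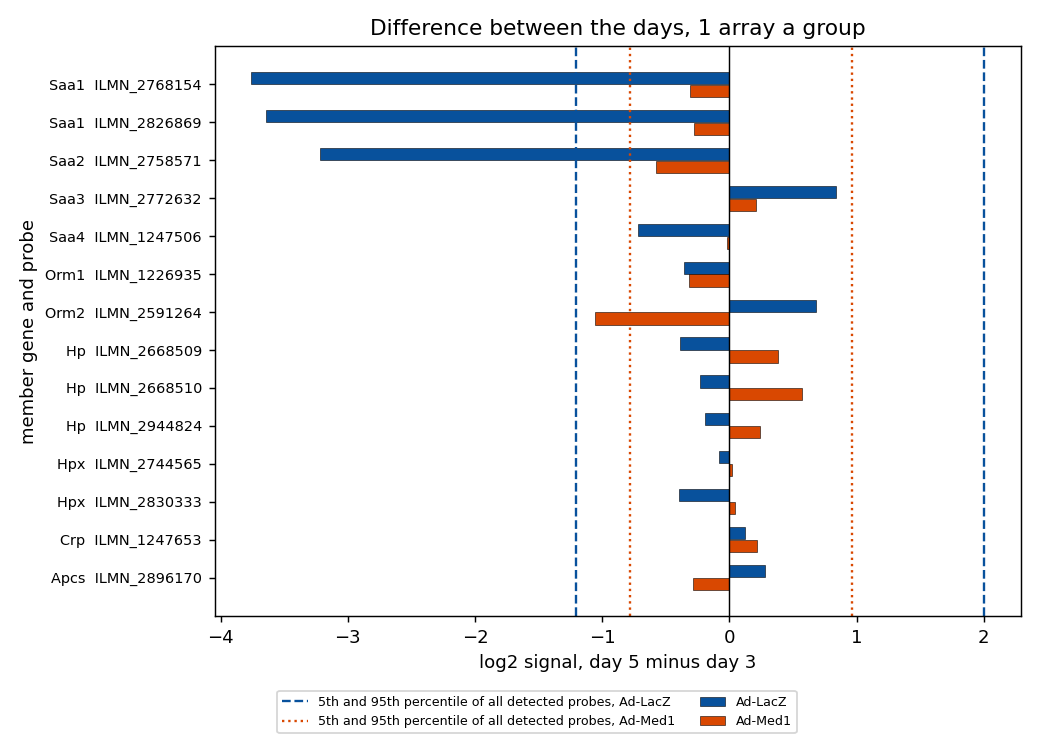
Log2 signal of day 5 minus day 3 (x axis) for the 14 detected member probes (y axis) within Ad-LacZ and within Ad-Med1, each bar the difference of 2 arrays; dashed and dotted lines are the 5th and 95th percentiles of all detected probes (-1.21 and 2.0 for Ad-LacZ, -0.78 and 0.96 for Ad-Med1). Saa1 and Saa2 stand below -3 in Ad-LacZ alone, and Orm2 is the lowest member in Ad-Med1 at -1.06.

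The genes whose 4 values lay nearest to those of a member were found by the Euclidean distance between log2 signals, each centred on its mean over the 4 arrays, among 9565 other genes. For Saa2 they were St3gal5, Trib1 and Rgs16 (distances 0.47, 0.61 and 0.63), and Saa1 came at rank 14 (1.03). For Saa3 they were Amn, Pclaf and Atn1 (0.56, 0.91 and 0.99), all detected on 2 arrays only. For Orm2 they were Gins2, Bora and Abca5 (0.09, 0.21 and 0.22), detected on 3, 2 and 2 arrays, so that these distances, like those of Saa3, rest partly on signal at background. Saa1 stood at rank 5390 for Saa3 and rank 9247 for Orm2, so the members themselves do not share 1 pattern.

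Other acute phase proteins were partly higher in Ad-Med1. Of 21 listed, 17 were detected. In this and the following lists a gene counts as 2-fold only where its fold, or its lower bound where the dimmer array did not detect it, reached 2. By that count 4 were higher at day 3 (Lcn2, Cfb, Hamp and Mt2) and 5 at day 5, and 0 were lower on either day, beside 11.7% and 7.0% of all genes higher and 10.7% and 6.55% lower. It takes the probe of highest mean signal per gene, and other detected probes of Cp and C4b disagreed with it. In measured signal those of Cp stood at 3.98, -0.62 and -3.18 at day 3 and 0.81, -0.41 and -2.07 at day 5. Those of C4b stood at -1.15 and -1.19, then -0.69 and -0.62. The list medians, of measured signals, were -0.01 and 0.25. Steap4, a metalloreductase, was higher by at least 1.52-fold at day 3 and at least 2.43-fold at day 5, and Lcn2, an iron-carrying lipocalin, was 2.32-fold and 3.26-fold higher. At the other end, Serpina3n, a protease inhibitor, stood at -0.39 on both days and Fgl1, a fibrinogen-like hepatokine, at -0.24 and -0.44. None of the 17 passed the limma test (Steap4 2.47 on the log2 scale, adjusted p = 0.345).

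Among the inducers and regulators, the cytokines Il6, Tnf and Osm were detected on no array. Of 25 listed genes 19 were detected, with 2 of 18 at least 2-fold higher and 4 lower at day 3, and 4 of 19 higher and 0 lower at day 5. Of all genes, 11.7% were higher and 10.7% lower at day 3, and 7.0% and 6.55% at day 5. The medians were 0.08 and 0.24 against -0.03 and 0.07 over all genes. Nfkbia, counted as lower at day 3 (-1.18), had another detected probe at 3.11 on that day. Stat3 stood at -0.32 and -0.62, and its other detected probes at -2.10 and -0.37, then -1.36 and 0.57. Socs3, the feedback inhibitor that STAT3 induces, was 1.80-fold higher at day 3 and 2.40-fold at day 5. Jak1, a kinase of the interleukin 6 receptor, was at background in Ad-LacZ day 3, which makes Ad-Med1 at least 5.90-fold higher, and was 1.11-fold lower at day 5. Il6ra, the interleukin 6 receptor, was 5.94-fold lower at day 3 and 1.25-fold lower at day 5 (other probes -2.30 and -2.64, then 0.12 and 0.14), and Lifr, a receptor of the same family, was at least 3.66-fold lower at day 3. For Jak1, Il6ra and Lifr it was Ad-LacZ day 3 that stood apart (5.57, 11.51 and 8.09 against 9.18 to 9.34, 8.94 to 9.39 and 6.16 to 6.38 elsewhere). Cebpb, a C/EBP factor named after its values were seen, read 13.62, 13.38 and 13.88 and was low in Ad-LacZ day 5 (12.23), as Saa1 and Saa2 were.

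Of the proteins that decline in an acute phase all 10 listed were detected. By the same count 1 was at least 2-fold higher and 1 lower at day 3, beside 11.7% and 10.7% of all genes. At day 5, 0 were higher and 3 lower, beside 7.0% and 6.55%. Their medians of -0.06 and -0.02 depended on the scaling, being -0.60 and -1.07 with median scaling (-1.64 and -1.93 less the shift of all detected probes). Igf1, the growth factor secreted by the liver, was 2.69-fold and 2.08-fold lower, and Serpinc1, antithrombin, 1.47-fold and 2.07-fold lower. Rbp4, the retinol carrier, was 5.31-fold higher at day 3, where Ad-LacZ read 11.52 against 13.79 to 13.93 elsewhere, and 1.07-fold higher at day 5. Serpina6, the corticosteroid carrier, stood at -0.10 and 0.42. A second probe of Igf1 was lower too (-0.92 and -0.60), while a second probe of Serpinc1 was higher at day 3 (1.44).

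**Figure D4:**
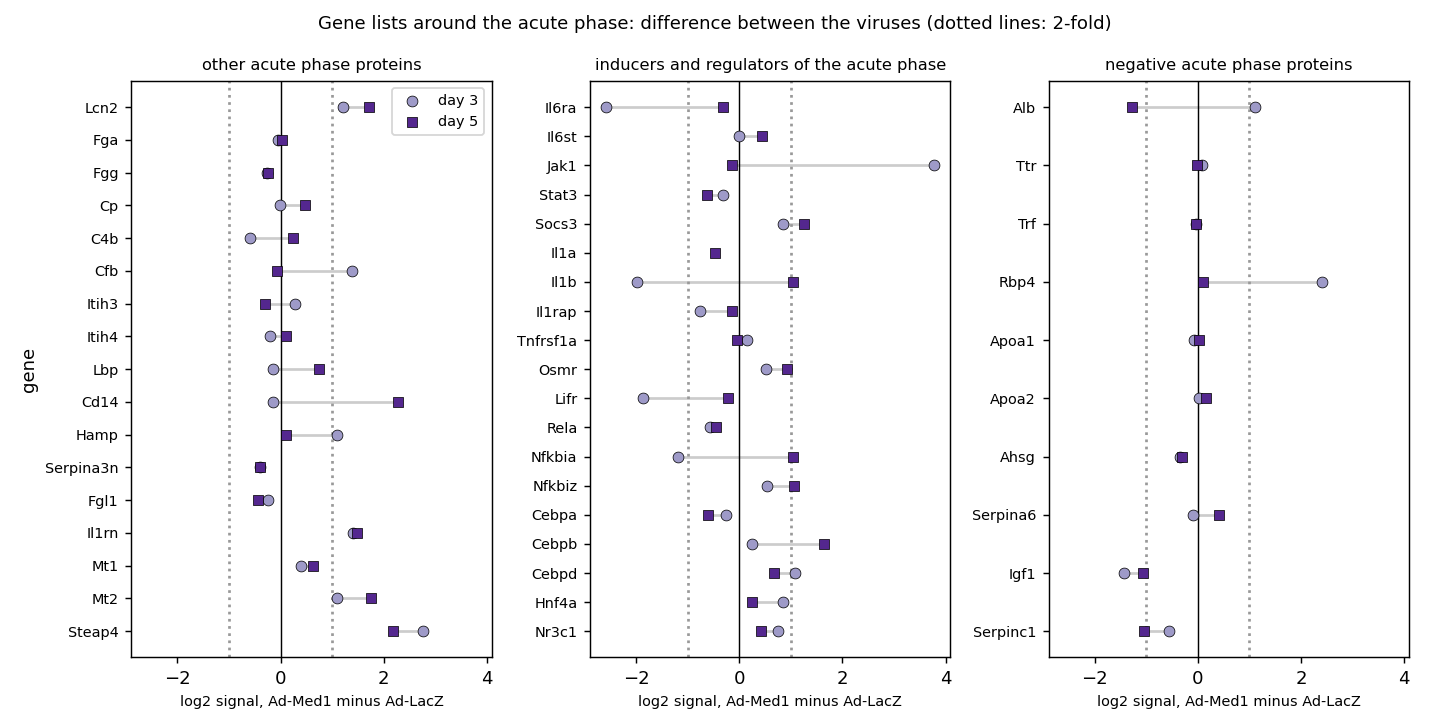
Log2 signal of Ad-Med1 minus Ad-LacZ (x axis) at day 3 and day 5 for the detected genes (y axis) of 3 lists, each point the difference of 2 arrays; dotted lines mark 2-fold, and a point is left out where neither array of the day detected the gene, and other points use the measured signal even where 1 array did not detect it, as for Steap4 in Ad-LacZ. Lcn2 lies past 2-fold on both days, and Igf1 lies below -1 on both.

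Receptors and clearance partners of the members, a list that includes haemoglobin genes, were lower in Ad-Med1 at day 3. By the same count 10 of 16 genes were at least 2-fold lower and 0 higher, beside 10.7% and 11.7% of all genes, with a median of -1.71. The 10 were Cd163, Fpr2, Fcgr2b, Fcgr3, C1qa, C1qb and C1qc and the haemoglobin genes Hba-a1, Hbb-bs and Hbb-bt. At day 5, 1 of 16 was lower and 3 were higher, beside 6.55% and 7.0% of all genes, and the median was 0.47. The haemoglobin genes Hba-a1 and Hbb-bt, whose protein haptoglobin binds, read 9.10 and 9.67 in Ad-Med1 day 3 against 14.06 to 14.63 and 14.00 to 14.58 elsewhere. Hmox1, which breaks down haem, was 1.27-fold higher at day 3 and 4.93-fold at day 5, and Fcgr1, an Fc receptor that also binds pentraxins, differed by 1.14 and 0.93 on the log2 scale, the first with no bound above 1. Cd163, the haptoglobin-haemoglobin receptor, was named after its values were seen and was detected in Ad-LacZ day 3 alone (7.54). Of the 5 Hp and Hpx probes, 1 also had its lowest value in Ad-Med1 day 3, Hp ILMN_2944824 (15.05 against 15.08 in Ad-LacZ day 5), and 4 had it in Ad-LacZ day 5.

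Markers of other cells moved with some of these values. In bulk liver fewer cells of a type and less RNA per cell cannot be told apart. Neutrophil markers with a probe were at least 2-fold higher in Ad-Med1 for 3 of 8 at day 3 (S100a8, S100a9 and Mpo), counting bounds, and for 6 of 7 at day 5, beside 11.7% and 7.0% of all genes. On either day 0 were lower, beside 10.7% and 6.55% of all genes. Their summed linear signal was 4110 and 6830 in Ad-Med1 against 831 and 1530 in Ad-LacZ, the order of the arrays that Saa3 also shows. Mpo and Elane did not follow that order. In Ad-Med1 they read 9.69 and 7.54 at day 3 and 6.86 and 5.52 at day 5, where Elane was not detected. Of the monocyte markers, 2 of 3 with a probe were detected and Ccr2 was not. The sums of these 2 were 893 and 2280 in Ad-Med1 and 2290 and 1740 in Ad-LacZ, and their patterns differed. Chil3 followed the order of Saa3 (7.50, 4.79, 8.11 and 6.64 in Ad-Med1 day 3, Ad-LacZ day 3, Ad-Med1 day 5 and Ad-LacZ day 5), but was not detected in Ad-LacZ day 3. Lyz2 did not follow it (9.47, 11.15, 10.97 and 10.68) and was 3.19-fold lower in Ad-Med1 at day 3, where its other detected probe stood at 1.55. Kupffer cell and macrophage markers summed to 1090 and 4460 in Ad-Med1 and 9100 and 3280 in Ad-LacZ, with 6 of 7 detected on some array and Cd5l on none. Counting bounds, 4 of 6 were lower at day 3 (Clec4f, Vsig4, Timd4 and Marco) and 0 higher, beside 10.7% and 11.7% of all genes. At day 5, 1 was higher (Marco) and 0 lower, beside 7.0% and 6.55%. Unlike the sum, Marco, Adgre1 and Csf1r were highest in Ad-Med1 day 5 (8.32, 10.86 and 10.53). Among the 4 stellate cell markers, Lrat was lower in Ad-Med1 by at least 5.34-fold at day 3 and at least 5.15-fold at day 5. Des was lower by 2.14-fold and 2.22-fold and Reln by 1.42-fold and 1.45-fold, while Col1a1 was higher, by 1.04-fold and at least 1.87-fold. Cela1, the only pancreatic marker detected, was lower by 2.36-fold and 4.02-fold. Cpa1 was detected on no array, and Prss1 and Pnlip had no probe. None of the 4 adipocyte markers with a probe was detected on any array. Hepatocyte markers summed to 147000 to 168000 on the 4 arrays with 6 of 8 detected, though the named probe of Alb was dim (5.84 to 7.59) and those of Tat and Fabp1 were at background. The part of any of these cells in the Saa3 difference was not tested.

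Saa3 and Orm2 kept their direction on both days under every processing tried. Across the 5 normalizations the Saa3 difference lay between 4.01 and 5.28 at day 3 and between 3.46 and 4.38 at day 5, and that of Orm2 between 2.40 and 3.42 and between 0.68 and 1.31. With the other day's control, Saa3 stood at 3.34 and 4.39 and Orm2 at 1.76 and 1.37, still above 0. Scaling to a common median shifted the median of all detected probes by 1.04 at day 3 and 0.859 at day 5, and the share of higher probes among those past 2-fold went from 55.5% to 96.1% at day 3 and from 50.8% to 93.6% at day 5.

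**Figure D5:**
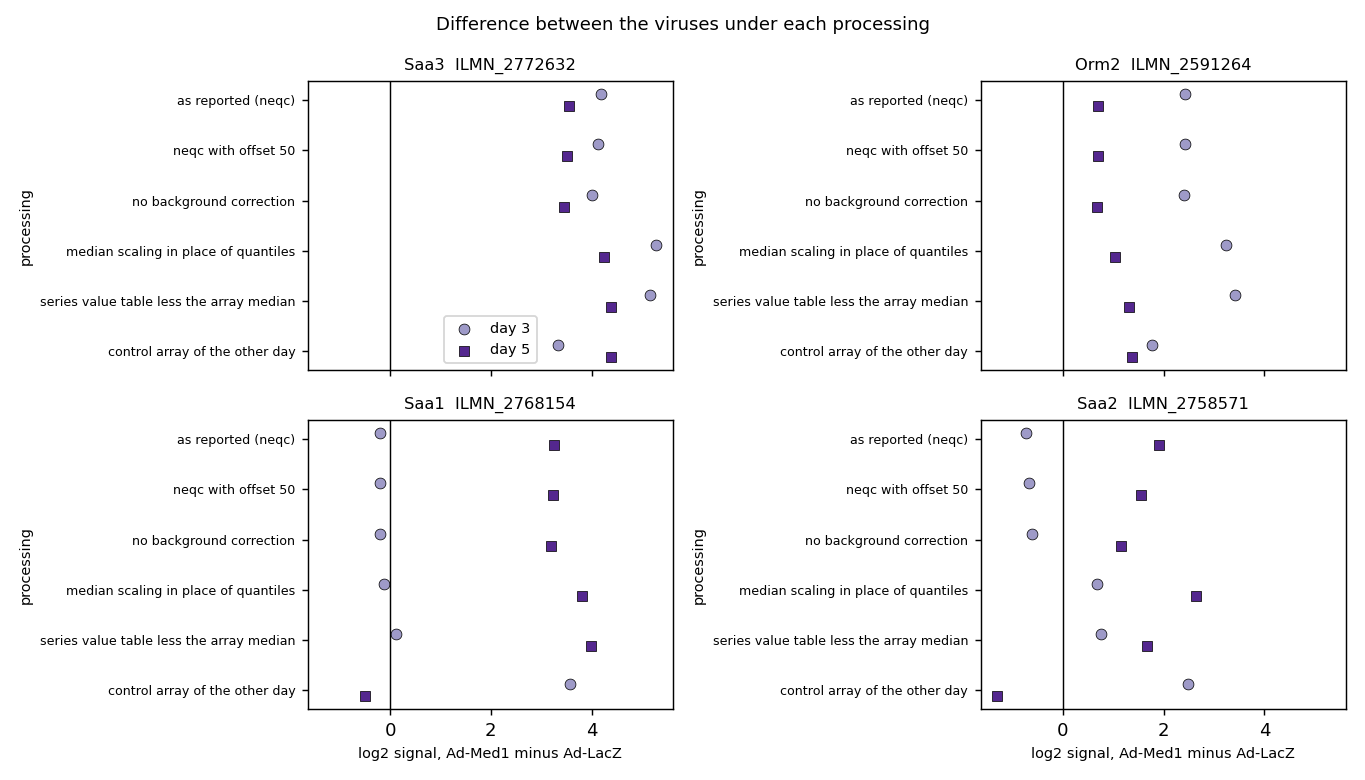
Log2 signal of Ad-Med1 minus Ad-LacZ (x axis) for Saa3, Orm2, Saa1 and Saa2 under each processing (y axis), at day 3 and day 5, each point the difference of 2 arrays. Saa3 stays between 3.34 and 5.28, whereas Saa1 and Saa2 change sign with the control array.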

How the data were processed

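Per the labels' protocols, liver RNA was taken up in Trizol, cleaned with DNase and made into biotinylated cRNA for Illumina arrays. The deposited table gives, per the file headers, an intensity and a detection p-value for every probe, without normalization. The series values hold the same intensities (largest difference 0), with medians of 153, 94.1, 163.5 and 100.4 for Ad-Med1 day 3, Ad-LacZ day 3, Ad-Med1 day 5 and Ad-LacZ day 5. All columns of the tables were used.

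Background correction with inference from detection p-values, an offset of 16, quantile normalization and log2 were run with neqc (limma 3.58.1, R 4.3.3). A probe was detected at a detection p under 0.01. Where the dimmer array did not detect a probe, a fold is a lower bound against the lowest detected signal of that array (6.09 to 6.78). Counting 2-fold differences by that bound was added after the data were seen; it is used for the gene lists and given beside the count of members by measured signal. The limma fit (lmFit, eBayes) had virus and day as terms over all 16767 probes detected on at least 1 array, with Benjamini-Hochberg adjustment; it was tested on simulated data. Outside the members, a gene was represented by its probe of highest mean signal, and symbols were updated through the gene identifier (34807 of 34885 found in the GRCm38.p6 table). Lists named the 2 highest and 2 lowest genes by mean difference over both days, and any gene past the limma threshold. Of all probes, 34885 had 1 gene symbol, 18 several and 10378 none. Members, lists and tests were chosen with earlier results of these data known. Nothing says whether arrays are separate animals. The limma p-values rest on the difference between the days' virus effects, moderated over all tested probes by eBayes, and on no spread between replicates. The number of arrays limits the precision. Computing also used Python 3.11.15, numpy 2.4.6, pandas 2.3.3, Biopython 1.88 and matplotlib 3.10.9. Alternatives covered the offset (50), background correction, scaling, the control array, the detection threshold (0.05, none or every array), the fold (1.5), the probe rule and the terms of the fit.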

Additional observations from a re-analysis of the deposited data

Results flagged for a closer look

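For 7 of the 14 detected probes the difference between the viruses had opposite signs on the 2 days. The change between the days was not tested, since each day has 1 array a group. No share of all probes stands beside this number, so it describes these probes only. The number was 3 with median scaling (both Saa1 probes and Apcs) and 3 in the series values less their medians (Hp ILMN_2668509, Crp and Apcs). Less the shift of all detected probes it was 4 under each. These were both Saa1 probes and Saa2, joined by Saa4 with median scaling and by Apcs in the series values. From day 3 to day 5 the Ad-Med1 minus Ad-LacZ difference of Saa1 changed by 3.45 for ILMN_2768154 (-0.19 to 3.26) and by 3.36 for ILMN_2826869 (-1.37 to 1.99). That of Saa2 changed by 2.64 (-0.73 to 1.91). The Hp probes changed by less, at 0.77 for ILMN_2668509, 0.80 for ILMN_2668510 and 0.43 for ILMN_2944824, and Apcs changed by -0.57 (0.02 to -0.55). For Saa1 and Saa2 the 2 Ad-LacZ arrays account for most of the change, as they differed by -3.76, -3.64 and -3.22 between the days against -0.31, -0.28 and -0.58 for the 2 Ad-Med1 arrays. No spread within a group is known, so small changes such as those of Hp have no error to be set against.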

How the results depend on the processing

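No paired analysis was possible because each group has 1 array and the labels number no replicates. The offset of 50 and the lack of background correction kept every member probe past 2-fold on its side. With the other day's control, called values turned sign for Saa1 (-0.50 for ILMN_2768154 and -1.65 for ILMN_2826869 at day 5, 2.27 for ILMN_2826869 at day 3) and Saa2 (-1.30 at day 5), and uncalled ones moved to 3.57 (Saa1 ILMN_2768154) and 2.49 (Saa2) at day 3 and to 1.37 for Orm2 at day 5. In the series values less their medians, day 3 values were 0.18 and 0.12 for Saa1 and 0.75 for Saa2, and Orm2 at day 5 was 1.31; median scaling gave 0.68 for Saa2 at day 3 and 1.03 for Orm2 at day 5. Less the shift of all detected probes, the latter were -0.36 and 0.17. Member probes higher at day 3 numbered 6 with the other control, beside 1463 of 15696 of all probes, against 2. Those lower numbered 0 with it, with median scaling and with the series values, and 2 at 1.5-fold, against 1. Of all probes, 1505 of 15696 were lower with the other control. Of 15585, 345 were lower with median scaling, 82 with the series values and 4234 at 1.5-fold. At day 5 the higher ones numbered 2 with the other control and 8 at 1.5-fold against 5. Of all probes, 3015 of 15964 and 3542 of 16080 were higher in these settings. The lower ones numbered 1 with median scaling and 2 with the other control against 0, beside 481 of 16080 and 2271 of 15964 probes. For other acute phase proteins the day 3 median was 0.44 with median scaling, 0.69 in the series values, 0.16 with the other control and 0.09 as a mean over probes. Less the shift of all detected probes the first 2 were -0.60 and -0.17. For the regulators it was 1.25 and 1.04 at day 3 with median scaling and in the series values (0.21 and 0.18 less the shift), and 1.02 with median scaling and -0.11 with the other control at day 5. Negative proteins moved to 0.04 as a mean over probes at day 3, and to -1.07 with median scaling and 0.07 with the other control at day 5. Clearance partners had -0.66 and -0.33 at day 3 and 1.14 at day 5 under median scaling, the series values and median scaling. Member probes past the limma threshold numbered 4 in the series values (Saa2, Saa3, Saa4 and Orm2), where 7762 probes were higher and 57 lower in all, and 0 to 1 when each array was left out (Saa3 without Ad-LacZ day 5), against 0. The cause was not tested.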
